A study of Mus musculus with 17 samples.

Results

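The genes described here copy the genome and divide the cell: 39 mouse genes of DNA replication and mitosis, listed by name and found through the probe sets of the array that the platform annotation gives to them. Of these, 37 had at least 1 probe set of their own, among 22180 genes measured in this way. Rfc4, a subunit of the clamp loader, had a probe set only in common with another gene and is not described, and Ccnb1, a mitotic cyclin, was not matched to a probe set in the annotation used. The genes were measured in RNA from whole embryos at E12.5 with 17 Affymetrix 2.0 ST arrays, 1 for each RNA sample, and the deposited log2 values had been normalised by the robust multiarray average (RMA). RMA subtracts background, gives every array the same distribution and merges the probes of a set, so all levels and differences below are on the log2 scale, and a difference of 1 is a doubling.

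The series compared mutants of Klf3, which encodes a Krüppel-like transcription factor that binds CACCC sequences and often represses its targets. H275R is a point mutation, induced with the mutagen ENU, that replaces a histidine with an arginine in the first zinc finger of KLF3, and the line was kept on C57BL/6J after a screen that had used C3H/HeJ females. CH is a gene trap in the first intron of Klf3, made in embryonic stem cells and kept on a mixed background. The groups were 3 H275R homozygotes, 4 H275R heterozygotes, 4 CH homozygotes, 2 CH heterozygotes and 4 WT embryos. Neither the line of each WT embryo nor the litters are stated, and embryos of a group may share a litter. A p-value here therefore reflects only how these embryos vary, and allele and line cannot be told apart wherever CH embryos were set against H275R embryos. In bulk RNA of whole embryos, fewer dividing cells and less RNA per dividing cell cannot be told apart either.

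Klf3 itself checked the labels of the CH homozygotes. It was 5.27, 5.62, 5.73 and 6.13 in CH homozygotes and 9.80, 9.48, 9.61 and 9.55 in WT embryos, a difference of -3.92 (limma, adjusted p = 5.18e-09). It was 9.64 and 9.09 in CH heterozygotes, of which 1 lay within the WT range, so their labels are not checked by it. Klf3 was 9.65, 9.33 and 9.38 in H275R homozygotes, and a point mutation need not change this level, so it checks nothing there. Array medians lay between 6.68 and 6.78, pairs of arrays correlated at 0.981 to 0.994, and 0 pairs held identical values. The first principal component, the axis along which the arrays differed most, held 19.4% of the variance. On it CH arrays lay between 4.34 and 32.1 and H275R arrays between -29.2 and -0.452. WT 1, 2 and 3 lay between -15.8 and -2.68, and WT 4 at 20.1, within the range of the CH arrays. WT 4 is part of every comparison with WT.

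Replication starts at origins that are licensed in G1. ORC1, a subunit of the origin recognition complex, together with CDC6 and CDT1 loads the MCM helicase onto DNA, and MCM10, CDC45 and the GINS complex later switch it on. Ribonucleotide reductase (RRM1 and RRM2) and thymidylate synthase (TYMS) supply nucleotides. Primase makes the primers, polymerases held on the template by the sliding clamp PCNA copy the strands, and FEN1 and LIG1 finish the lagging strand. Cyclins with CDK1 then drive entry into mitosis, where kinases and motor proteins sort the chromosomes. Genes of the first steps are classically controlled by E2F factors, and many mitotic genes by the MuvB complexes (DREAM, and MuvB with B-MYB and FOXM1) through a CHR element, often beside CCAAT boxes bound by NF-Y. In an embryo at this stage proliferating cells are abundant in most tissues, neural progenitors and fetal liver among them.

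Promoters of 5 members are printed. Those of CDC6 of licensing, the kinase CDK1, the mitotic kinase PLK1 and CDC20, the activator of the anaphase-promoting complex, show E2F or CHR words in genes from both ends of the cycle, and that of the sliding clamp PCNA is shown because Pcna was the member with the largest F over genotypes. Each is RefSeq sequence of GRCm38.p6, 5′ to 3′ on the strand of the gene, from 250 bases before to 50 bases after the annotated start. Capitals mark words for E2F sites (TTTCCCGC, TTTCGCGC, TTTGCCGC or TTTGGCGC), CHR elements (TTTGAA or TTCGAA) and CCAAT boxes (CCAAT), each searched on both strands.
Cdc6, chr11:98907901-98908200, plus strand: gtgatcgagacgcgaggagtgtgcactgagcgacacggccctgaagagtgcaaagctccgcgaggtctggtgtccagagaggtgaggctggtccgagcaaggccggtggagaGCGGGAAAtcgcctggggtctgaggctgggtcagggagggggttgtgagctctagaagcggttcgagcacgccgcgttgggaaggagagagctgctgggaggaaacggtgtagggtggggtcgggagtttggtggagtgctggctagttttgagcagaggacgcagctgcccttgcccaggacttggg
Pcna, chr2:132253131-132253430, minus strand: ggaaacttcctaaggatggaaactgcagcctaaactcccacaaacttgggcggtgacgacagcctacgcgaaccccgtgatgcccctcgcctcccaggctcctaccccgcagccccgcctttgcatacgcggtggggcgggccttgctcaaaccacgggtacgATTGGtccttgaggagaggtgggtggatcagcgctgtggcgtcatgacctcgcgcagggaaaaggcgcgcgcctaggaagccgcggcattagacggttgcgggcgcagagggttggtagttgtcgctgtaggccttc
Cdk1, chr10:69352863-69353162, minus strand: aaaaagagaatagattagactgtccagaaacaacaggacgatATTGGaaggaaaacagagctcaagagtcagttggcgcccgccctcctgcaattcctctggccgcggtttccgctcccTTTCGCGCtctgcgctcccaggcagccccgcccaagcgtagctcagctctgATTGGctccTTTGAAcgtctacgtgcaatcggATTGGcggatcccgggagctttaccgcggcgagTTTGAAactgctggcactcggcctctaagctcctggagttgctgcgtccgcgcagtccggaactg
Plk1, chr7:122159185-122159484, plus strand: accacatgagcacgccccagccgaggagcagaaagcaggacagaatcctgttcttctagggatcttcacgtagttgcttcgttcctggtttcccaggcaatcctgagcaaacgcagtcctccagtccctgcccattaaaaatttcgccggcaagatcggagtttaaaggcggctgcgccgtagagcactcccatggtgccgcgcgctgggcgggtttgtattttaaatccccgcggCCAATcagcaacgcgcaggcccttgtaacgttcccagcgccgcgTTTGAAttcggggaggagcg
Cdc20, chr4:118437294-118437593, minus strand: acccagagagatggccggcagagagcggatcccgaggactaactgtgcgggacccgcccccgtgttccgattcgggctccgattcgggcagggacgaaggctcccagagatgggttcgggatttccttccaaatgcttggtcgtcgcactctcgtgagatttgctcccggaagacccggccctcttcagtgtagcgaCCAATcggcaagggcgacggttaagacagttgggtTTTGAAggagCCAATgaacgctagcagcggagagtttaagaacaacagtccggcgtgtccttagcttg

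The Cdc6 window held 1 E2F word, which began 138 bases before the start, and no CHR. The Cdk1 window held both kinds, with an E2F word beginning 131 bases and CHR words beginning 71 and 15 bases before the start, beside 3 CCAAT words. In Cdc20 a CHR word began 18 bases before the start, and in Plk1 the CHR word began at base 31 after it. The Pcna window held 1 CCAAT word and neither of the others.

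A promoter was found for 33 of the 39 members, which gave 37 windows of 300 bases. An E2F word was present in 11 of them (29.7%), against 2.26% of all 32851 promoters, and a CHR word in 15 (40.5%), against 19.2%. CCAAT was present in 27 (73.0%), against 37.4%. E2F and CHR words differed between 2 of the roles. Of the 11 licensing and helicase promoters 7 held an E2F word and 3 a CHR. Of the 9 promoters of spindle, kinetochore and chromosome genes 0 held an E2F word and 8 a CHR. CCAAT was present in 9 promoters of each of these 2 roles. Of 10 fork promoters 3 held an E2F word and 2 a CHR, of 4 cyclin and Cdk1 promoters 1 and 2, and of 3 nucleotide supply promoters 0 and 0. The CACCC word, the core of the sequence that KLF3 binds, was present in 22 of the 37 windows (59.5%), against 57.5% of all promoters. In 4 places 2 different motifs overlapped. A match is a description of letters in a window and not a binding site.

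No member passed the test in any of 7 comparisons of genotypes. In each, limma was fitted to all 39137 probe sets and a gene was called at a Benjamini-Hochberg adjusted p under 0.1, and a gene with several probe sets was represented by the one with the highest mean. In H275R homozygotes against WT, 0 of 37 members were called, against 0.0135% of all genes. An unadjusted p under 0.05 was found for 0 members in limma, against 4.13% of all genes, and for 1 in the methods' t-test that the study names for its statistics in general. In H275R heterozygotes against WT, 0 of 37 were called (0% of all genes), with 1 under 0.05 in limma, against 2.72% of all genes, and 1 in the methods' t-test. In CH homozygotes against WT, 0 of 37 were called (0.0451% of all genes), with 1 under 0.05 in limma, against 9.14% of all genes, and 1 in the methods' t-test. In CH heterozygotes against WT, 0 of 37 were called (0.00451% of all genes), with 2 under 0.05 in limma, against 5.59% of all genes, and 2 in the methods' t-test. These 4 comparisons share the same WT arrays.

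The mutant groups were also set against each other. In H275R homozygotes against H275R heterozygotes 0 of 37 members were called (0% of all genes), with 0 under 0.05 in limma, against 2.26% of all genes, and 1 in the methods' t-test. In CH homozygotes against CH heterozygotes 0 of 37 were called (0.00902% of all genes), with 1 under 0.05 in limma, against 4.63% of all genes, and 1 in the methods' t-test. CH homozygotes against H275R homozygotes gave 0 of 37 calls (0.135% of all genes), and 4 members under 0.05 in limma, against 12.7% of all genes, and 6 in the methods' t-test. The test of whether the step between heterozygote and homozygote differed between CH and H275R called 0 members, where the smallest adjusted p was 0.9998, and 0.00511% of probe sets. The F test over all 5 genotypes gave 1 member, Pcna, with an unadjusted p under 0.05, against 9.11% of genes.

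The 95% intervals show how precisely the difference of each single gene was measured. They are not adjusted for the number of probe sets, so they do not give the smallest difference that would have been called. In H275R homozygotes against WT the 95% intervals of 35 of 37 members lay within 0.5 of 0, and those of 89.2% of all genes did. The exceptions were Cdt1, with a difference of 0.19 (95% interval -0.17 to 0.55, adjusted p = 0.999), and Cenpe at -0.13 (95% interval -0.51 to 0.26, adjusted p = 0.999). In CH homozygotes against WT 36 of 37 lay within 0.5, with Cdt1 at -0.24 (95% interval -0.57 to 0.10, adjusted p = 0.701) as the exception, against 89% of all genes. For H275R heterozygotes against WT the exception was Cenpe at -0.26 (95% interval -0.62 to 0.09, adjusted p = 0.9996), and 36 members lay within. The comparison of CH heterozygotes with WT rests on 2 arrays and left 34 of 37 members within 0.5, against 79.8% of all genes.

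**Figure D1:**
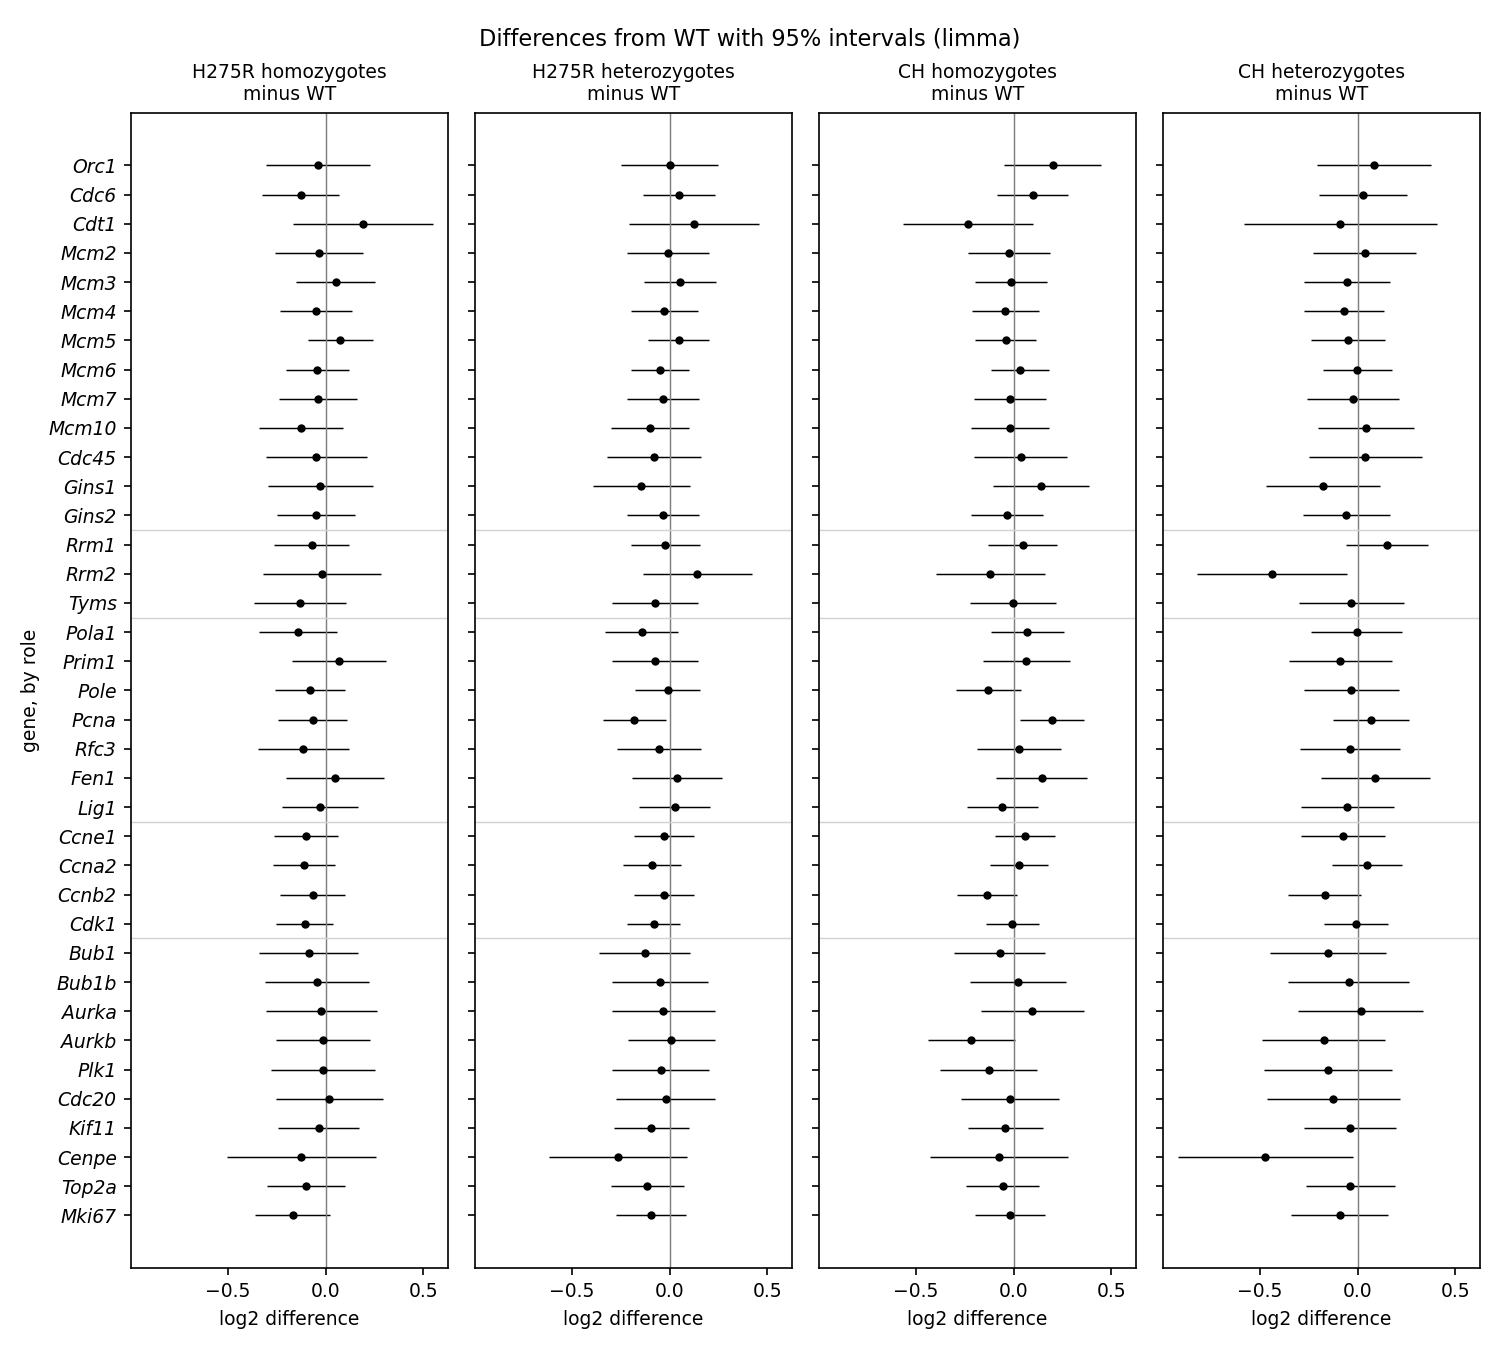
Difference from WT on the log2 scale (x axis) for the 37 measured genes (rows, by role), in H275R homozygotes, H275R heterozygotes, CH homozygotes and CH heterozygotes; points are limma differences and lines their 95% intervals. Nearly all points lie close to 0, and the widest intervals belong to Cdt1, Cenpe and Rrm2.

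The small differences leaned one way in some comparisons. In H275R homozygotes minus WT 31 of 37 members were below 0, against 47.2% of all genes, with a median of -0.05 for the members and 0.01 for all genes, and a range from -0.17 (Mki67) to 0.19 (Cdt1). In H275R heterozygotes minus WT 29 of 37 were below 0, against 47.3% of all genes, with a median of -0.04, and the ends were Cenpe at -0.26 and Rrm2 at 0.14. In CH homozygotes minus WT 22 of 37 were below 0 (49.2% of all genes) and the median was -0.02, with Cdt1 at -0.24 and Orc1 at 0.20 as the ends. In CH heterozygotes minus WT 27 of 37 were below 0 (52.3% of all genes) and the median was -0.04. In H275R homozygotes minus H275R heterozygotes 20 of 37 were below 0 (48.6%) and in CH homozygotes minus CH heterozygotes 11 of 37 (45.7%), with medians of -0.01 and 0.03. In CH homozygotes minus H275R homozygotes 12 of 37 were below 0 (50.2%) and the median was 0.05, with Cdt1 at -0.43 and Pcna at 0.26 as the ends. The members are not independent of each other, so these counts are no test, and the medians moved with single arrays: the H275R homozygote median against WT was -0.10 without H275R homozygote 2 and -0.02 without H275R homozygote 3. The counts below 0 also moved with the scaling, for the members and for all genes. With each array centred on its median, 21 of 37 members were below 0 in H275R homozygotes minus WT (30.5% of all genes). The median was then -0.0058 for the members and 0.05 for all genes. In H275R heterozygotes minus WT 23 of 37 were below 0 (35.2%), with a median of -0.0082 for the members and 0.03 for all genes. Centring shifts all genes of an array by the same amount. The median of the members therefore stayed as far below that of all genes as before.

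Markers of blood and liver lay below WT in H275R homozygotes too. All 6 measured of 8 erythroid genes were below 0 in H275R homozygotes minus WT, with a median of -0.32. Of them 2 had an unadjusted p under 0.05 in limma, against 4.13% of all genes. The mean of the 6 ranged from 8.63 to 8.83 in H275R homozygotes and from 8.92 to 9.54 in WT embryos, without overlap. Of 6 hepatocyte genes 5 were below 0, with a median of -0.40, and their mean ranged from 9.67 to 10.04 in H275R homozygotes and from 9.90 to 10.37 in WT embryos. Neural progenitor and neuron genes lay above 0 in 7 of 8 each, and cartilage and skeletal muscle genes in 5 of 6 each (medians 0.07 and 0.17). Erythroid genes were also below 0 in 6 of 6 in H275R heterozygotes minus WT (median -0.15). In CH homozygotes minus WT 5 of 6 were (median -0.29), 2 with an unadjusted p under 0.05 in limma (smallest adjusted p 0.182), against 9.14% of all genes. Hepatocyte genes had medians of -0.006 in H275R heterozygotes minus WT (4 of 6 below 0) and 0.20 in CH homozygotes minus WT (1 of 6 below 0). None of these markers was called. In H275R homozygotes minus WT the smallest adjusted p in limma was 0.582 for the erythroid list and 0.993 for the hepatocyte list. The part of these markers in the lean of the replication and mitosis genes was not tested.

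**Figure D2:**
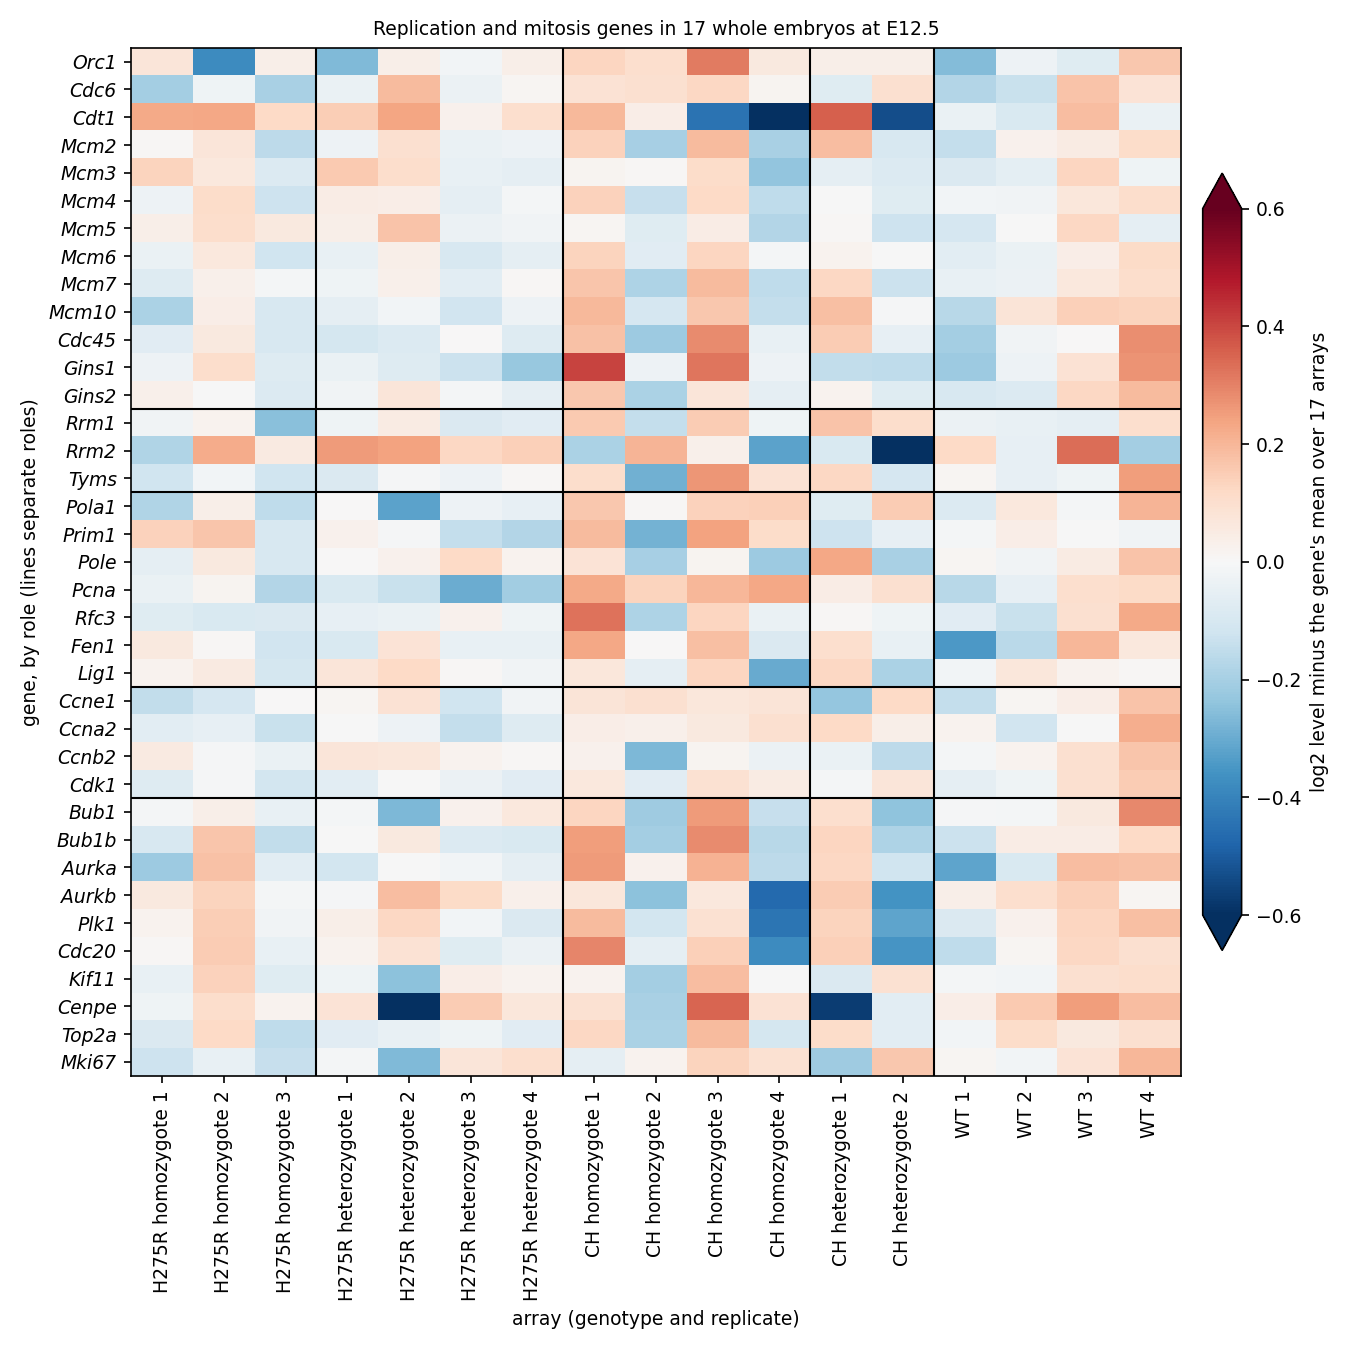
Level of each measured gene (rows, by role, with lines between roles) in each of the 17 arrays (columns, by genotype), as the log2 value minus the mean of the gene over the arrays; red is above and blue below this mean. CH homozygotes 1 and 3 are red and CH homozygotes 2 and 4 blue in most rows, and WT 4 is red where WT 1 is blue.

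Among the 13 licensing and helicase genes, the 3 with the largest F over genotypes were Gins1, Cdc6 and Cdt1. Gins1, a subunit of the GINS complex of the active helicase, was 8.19, 8.33 and 8.15 in H275R homozygotes, 8.18, 8.14, 8.09 and 7.996 in H275R heterozygotes, 8.63, 8.19, 8.54 and 8.19 in CH homozygotes, 8.07 and 8.07 in CH heterozygotes, and 8.01, 8.19, 8.31 and 8.49 in WT embryos. H275R homozygote 1, CH homozygotes 2 and 4 and WT 2 held one identical value of it, 8.19. All 4 CH homozygotes were above both CH heterozygotes, a difference of 0.32 (95% interval 0.02 to 0.61, adjusted p = 0.911), while CH homozygotes and WT embryos overlapped, at 0.14 (95% interval -0.11 to 0.39, adjusted p = 0.773). Cdc6, the ATPase that helps load the helicase, was 8.76, 8.94 and 8.77 in H275R homozygotes, 8.93, 9.16, 8.93 and 8.98 in H275R heterozygotes, 9.05, 9.06, 9.09 and 8.98 in CH homozygotes, 8.89 and 9.06 in CH heterozygotes, and 8.79, 8.83, 9.14 and 9.05 in WT embryos. The CH homozygotes were all above the H275R homozygotes, by 0.22 (95% interval 0.03 to 0.42, adjusted p = 0.337), and neither homozygote group separated from WT.

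Cdt1, the partner of CDC6 in licensing that is destroyed once replication starts, was the member with the largest spread between embryos of a genotype. It was 9.53, 9.53 and 9.42 in H275R homozygotes, 9.45, 9.54, 9.32 and 9.40 in H275R heterozygotes, 9.49, 9.34, 8.85 and 8.57 in CH homozygotes, 9.66 and 8.77 in CH heterozygotes, and 9.26, 9.21, 9.48 and 9.26 in WT embryos. CH homozygotes ran across 0.92 log2 units, CH heterozygotes across 0.89, and H275R homozygotes and WT embryos across 0.11 and 0.28. The difference of CH homozygotes from H275R homozygotes was -0.43 (95% interval -0.79 to -0.07, adjusted p = 0.317), and the groups overlapped. Without CH homozygote 1 the adjusted p became 0.115, the smallest of the named members under the alternative settings run, where the adjusted p for this difference reached 0.653.

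The 6 core MCM subunits, which form the ring of the helicase, varied little between genotypes. In both comparisons of homozygotes with WT all of their intervals lay within 0.5 of 0, and in 0 of them did a mutant group lie apart from WT. Adjusted p of the F test ran from 0.876 (Mcm5) to 0.999 (Mcm7). Mcm2 averaged 10.89 ± 0.12 in H275R homozygotes (SD, n = 3), 10.91 ± 0.07 in H275R heterozygotes (n = 4), 10.90 ± 0.21 in CH homozygotes (n = 4) and 10.92 ± 0.11 in WT embryos (n = 4). Mcm7 averaged 10.76 ± 0.05, 10.77 ± 0.04, 10.79 ± 0.20 and 10.81 ± 0.07 in the same groups. In both genes the SD of CH homozygotes was larger than that of these other groups, and every group overlapped WT. Orc1 was the member furthest above WT in CH homozygotes, at 0.20 (95% interval -0.05 to 0.45, adjusted p = 0.65), and Mcm10, Cdc45 and Gins2 had F tests with p over 0.05.

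Of the 3 genes of nucleotide supply, Rrm2, the regulated subunit of ribonucleotide reductase, had the largest F. It was 9.95, 10.35 and 10.18 in H275R homozygotes, 10.39, 10.37, 10.26 and 10.27 in H275R heterozygotes, 9.94, 10.34, 10.16 and 9.81 in CH homozygotes, 10.04 and 9.45 in CH heterozygotes, and 10.25, 10.08, 10.46 and 9.93 in WT embryos. CH heterozygote 2 was the lowest of all 17 arrays, and CH heterozygotes minus WT was -0.44 (95% interval -0.82 to -0.05, adjusted p = 0.814). Without CH heterozygote 2 this difference was -0.14, and without CH heterozygote 1 it was -0.73. The difference was -0.12 (95% interval -0.40 to 0.16, adjusted p = 0.836) in CH homozygotes and -0.02 (95% interval -0.32 to 0.28, adjusted p = 0.999) in H275R homozygotes, each minus WT. Rrm1, the other subunit, was 11.10, 11.14 and 10.87 in H275R homozygotes, 11.09, 11.17, 11.03 and 11.05 in H275R heterozygotes, 11.27, 10.98, 11.27 and 11.09 in CH homozygotes, 11.29 and 11.22 in CH heterozygotes, and 11.08, 11.07, 11.06 and 11.22 in WT embryos. Both CH heterozygotes lay above all WT embryos, by 0.15 (95% interval -0.06 to 0.36, adjusted p = 0.921), in the direction opposite to Rrm2. Tyms was 9.29, 9.39 and 9.29 in H275R homozygotes, 9.32, 9.40, 9.38 and 9.42 in H275R heterozygotes, 9.52, 9.12, 9.67 and 9.50 in CH homozygotes, 9.53 and 9.31 in CH heterozygotes, and 9.42, 9.36, 9.38 and 9.66 in WT embryos, and no genotype separated from WT.

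Pcna encodes the sliding clamp that holds polymerases on the template, and it stood out among the fork genes by its F (unadjusted p = 0.00218, adjusted p = 0.221). Pcna was 11.78, 11.84 and 11.64 in H275R homozygotes, 11.73, 11.69, 11.52 and 11.61 in H275R heterozygotes, 12.05, 11.95, 12.02 and 12.05 in CH homozygotes, 11.86 and 11.91 in CH heterozygotes, and 11.65, 11.77, 11.92 and 11.93 in WT embryos. The 4 CH homozygotes were above every other array, between 11.95 and 12.05. The difference of CH homozygotes was 0.20 (95% interval 0.03 to 0.36, adjusted p = 0.472) from WT, 0.26 (95% interval 0.09 to 0.44, adjusted p = 0.232) from H275R homozygotes, and 0.13 (95% interval -0.07 to 0.32, adjusted p = 0.961) from CH heterozygotes. The H275R heterozygotes overlapped WT and the difference was -0.18 (95% interval -0.34 to -0.02, adjusted p = 0.9996), and for H275R homozygotes minus WT it was -0.07 (95% interval -0.24 to 0.11, adjusted p = 0.999). As a fold, CH homozygotes had 1.15 times the WT level of Pcna, with an interval of 1.02 to 1.28.

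**Figure D3:**
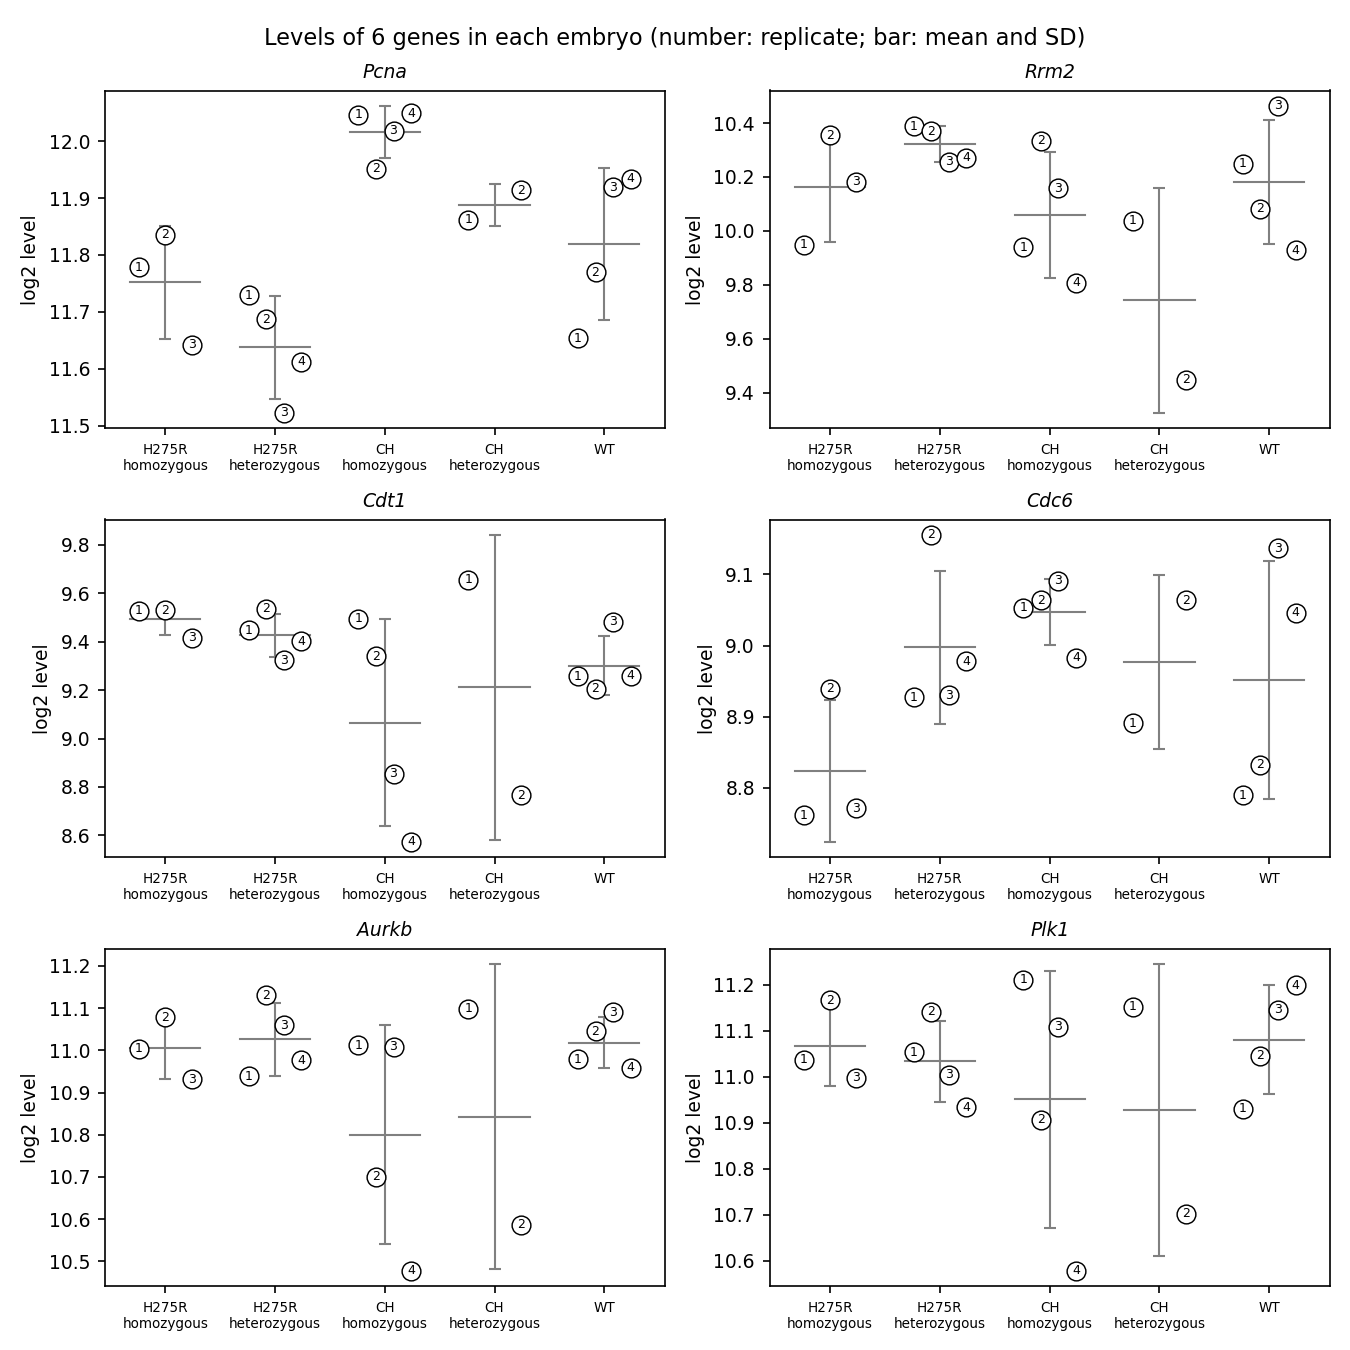
Log2 level (y axis) of Pcna, Rrm2, Cdt1, Cdc6, Aurkb and Plk1 in each embryo, by genotype (x axis); circles carry the replicate number, and bars show the mean and SD of each group. Pcna lies between 11.95 and 12.05 in CH homozygotes and between 11.65 and 11.93 in WT embryos, while Cdt1 ranges from 8.57 to 9.49 within CH homozygotes.

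The other fork genes showed no such separation from WT. Pola1, the catalytic subunit of the polymerase that starts each fragment, was 9.45, 9.67 and 9.48 in H275R homozygotes, 9.63, 9.31, 9.60 and 9.58 in H275R heterozygotes, 9.79, 9.64, 9.77 and 9.77 in CH homozygotes, 9.56 and 9.78 in CH heterozygotes, and 9.55, 9.69, 9.62 and 9.84 in WT embryos. CH homozygotes minus H275R homozygotes was 0.21 (95% interval 0.01 to 0.41, adjusted p = 0.379), with overlap between the groups, and CH homozygotes minus WT was 0.07 (95% interval -0.12 to 0.26, adjusted p = 0.863). Pola1 lies on the X chromosome, and the fits took no account of embryo sex. Xist, an RNA of female cells, had the largest SD of all genes within H275R homozygotes (4.18) and CH homozygotes (3.38). The part of sex in the level of Pola1 was not tested. Prim1, the primase subunit that makes the RNA primer, was 9.24, 9.27 and 9.01 in H275R homozygotes, 9.13, 9.10, 8.96 and 8.93 in H275R heterozygotes, 9.30, 8.82, 9.35 and 9.21 in CH homozygotes, 8.98 and 9.05 in CH heterozygotes, and 9.09, 9.14, 9.10 and 9.08 in WT embryos. Both CH heterozygotes were below all WT embryos by a difference of -0.09 (95% interval -0.35 to 0.17, adjusted p = 0.966), and CH homozygote 2 was the lowest of all arrays. Pole, Rfc3, Fen1 and Lig1 had F tests with p over 0.05. The second probe set of Fen1, which had a lower signal, gave -0.17 for CH homozygotes minus WT (adjusted p = 0.615), where the probe set used gave 0.14 (95% interval -0.09 to 0.37, adjusted p = 0.745).

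Of the cyclins and Cdk1, 4 genes were measured. Ccna2, the cyclin of S phase and G2, was 11.37, 11.38 and 11.29 in H275R homozygotes, 11.42, 11.40, 11.29 and 11.35 in H275R heterozygotes, 11.46, 11.46, 11.48 and 11.52 in CH homozygotes, 11.55 and 11.46 in CH heterozygotes, and 11.45, 11.31, 11.42 and 11.64 in WT embryos. CH homozygotes were all above H275R homozygotes, by 0.14 (95% interval -0.02 to 0.30, adjusted p = 0.477), and overlapped WT. Ccnb2, a mitotic cyclin, was 11.33, 11.27 and 11.23 in H275R homozygotes, 11.35, 11.34, 11.30 and 11.28 in H275R heterozygotes, 11.30, 11.01, 11.29 and 11.24 in CH homozygotes, 11.24 and 11.12 in CH heterozygotes, and 11.27, 11.30, 11.37 and 11.44 in WT embryos. Both CH heterozygotes lay below all WT embryos, with a difference of -0.17 (95% interval -0.36 to 0.02, adjusted p = 0.873), and CH homozygotes minus WT was -0.14 (95% interval -0.29 to 0.02, adjusted p = 0.616). Cdk1, the kinase of mitotic entry whose promoter held both kinds of word, was 10.82, 10.89 and 10.79 in H275R homozygotes, 10.84, 10.90, 10.87 and 10.83 in H275R heterozygotes, 10.96, 10.83, 10.99 and 10.95 in CH homozygotes, 10.89 and 10.97 in CH heterozygotes, and 10.85, 10.87, 11.00 and 11.05 in WT embryos. Its largest difference from WT was -0.11 (95% interval -0.25 to 0.04, adjusted p = 0.999), in H275R homozygotes, and in CH homozygotes it was -0.01 (95% interval -0.14 to 0.13, adjusted p = 0.983). Ccne1, the cyclin of the G1 to S step, was above all H275R homozygotes in every CH homozygote, by 0.16 (95% interval -0.00 to 0.33, adjusted p = 0.413).

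Of the 10 genes of the spindle, kinetochore and chromosomes, Cenpe, a motor protein of the kinetochore, had the largest F. Cenpe was 9.93, 10.06 and 9.98 in H275R homozygotes, 10.04, 9.22, 10.11 and 10.02 in H275R heterozygotes, 10.05, 9.76, 10.30 and 10.04 in CH homozygotes, 9.39 and 9.89 in CH heterozygotes, and 9.99, 10.11, 10.20 and 10.14 in WT embryos. Its differences moved with single arrays, and H275R heterozygote 2 was the lowest of all 17 arrays. Both CH heterozygotes were below all WT embryos, a difference of -0.47 (95% interval -0.92 to -0.03, adjusted p = 0.826). It was -0.22 without CH heterozygote 1 and -0.73 without CH heterozygote 2, below 0 in each case. Without H275R heterozygote 2, the H275R homozygotes minus heterozygotes difference of Cenpe turned to -0.07. Aurkb, the kinase of the chromosomal passenger complex, was 11.00, 11.08 and 10.93 in H275R homozygotes, 10.94, 11.13, 11.06 and 10.98 in H275R heterozygotes, 11.01, 10.70, 11.01 and 10.48 in CH homozygotes, 11.10 and 10.59 in CH heterozygotes, and 10.98, 11.04, 11.09 and 10.96 in WT embryos. CH homozygotes minus WT was -0.22 (95% interval -0.44 to 0.00, adjusted p = 0.569), with CH homozygotes 2 and 4 below every WT embryo and CH homozygotes 1 and 3 within the WT range.

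The other spindle, kinetochore and chromosome genes were the checkpoint genes Bub1 and Bub1b, the kinases Aurka and Plk1, Cdc20, the spindle motor Kif11 and Top2a. Their F tests over genotypes had adjusted p of 0.937 (Top2a) to 0.994 (Bub1b). Mki67 encodes the proliferation antigen Ki-67, a coat protein of mitotic chromosomes. Mki67 was 11.76, 11.84 and 11.75 in H275R homozygotes, 11.87, 11.62, 11.96 and 11.99 in H275R heterozygotes, 11.83, 11.91, 12.02 and 11.98 in CH homozygotes, 11.67 and 12.05 in CH heterozygotes, and 11.90, 11.87, 11.97 and 12.09 in WT embryos. All 3 H275R homozygotes lay below all 4 WT embryos, a difference of -0.17 (95% interval -0.36 to 0.02, adjusted p = 0.999), and CH homozygotes minus WT was -0.02 (95% interval -0.20 to 0.16, adjusted p = 0.964). It was the one member of 37 without overlap between H275R homozygotes and WT, against 6.38% of all genes. For H275R heterozygotes against WT the one such member was Top2a, which untangles DNA (2.91% of all genes), at -0.11 (95% interval -0.30 to 0.07, adjusted p = 0.9996), and for H275R homozygotes against heterozygotes it was Rfc3 (4.56%). In CH homozygotes against WT it was Pcna (4.15%), and against H275R homozygotes the 4 were Cdc6, Pcna, Ccne1 and Ccna2 (11.5%). CH heterozygotes separated from WT in Rrm1, Prim1, Ccnb2 and Cenpe (12.6%), and CH homozygotes from CH heterozygotes in Orc1, Gins1 and Pcna (10.9%).

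Within a genotype, single embryos differed in many members at once. Among CH homozygotes, arrays 1 and 3 were both above arrays 2 and 4 in 29 of 37 members (78.4%), against 29% of all genes, and both below in 0, against 23.7%. The order held in 11 of 13 licensing and helicase genes and in 9 of 10 spindle, kinetochore and chromosome genes. It was absent in Cdc6, Cdt1, Rrm2, Pola1, Pcna, Ccne1, Ccna2 and Mki67. The arrays were set in this order after their values were seen, so the counts carry no test. Plk1, a mitotic kinase chosen for its spread after its values were seen, was 11.21, 10.91, 11.11 and 10.58 in CH homozygotes and 10.93, 11.05, 11.15 and 11.20 in WT embryos. Cdc20, which activates the anaphase-promoting complex and was chosen in the same way, was 11.00, 10.65, 10.84 and 10.32 in CH homozygotes and 10.55, 10.71, 10.83 and 10.80 in WT embryos. In both genes the lowest CH homozygote was below every WT embryo and the highest was above every one.

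Similar orders were seen in other groups. CH heterozygote 1 exceeded CH heterozygote 2 in 27 of 37 members (73%), against 52.1% of all genes. WT 4 was the highest WT array in 23 members, against 26% of all genes, and WT 1 the lowest in 24, against 27.8%. H275R homozygote 2 was the highest of its group in 30 members, against 39.1%. The median SD within CH homozygotes was 0.175 for the members and 0.136 for all genes, within H275R homozygotes 0.0889 and 0.0997, and within H275R heterozygotes 0.0699 and 0.104. Within CH heterozygotes it was 0.133 and 0.119, and within WT 0.118 and 0.114.

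In the CH line, markers of some other cell types ran opposite to these orders. The mean of 6 hepatocyte genes, among them Alb and Afp, was 9.75, 11.01, 9.76 and 11.05 in CH homozygotes, 9.38 and 11.09 in CH heterozygotes, and 10.25, 10.11, 10.37 and 9.90 in WT embryos. All 6 of them were lower in CH homozygotes 1 and 3 than in 2 and 4. WT embryos showed this opposite order in part. WT 4, the highest in 23 members, was the lowest in all 6 hepatocyte, 5 of 6 cartilage and all 6 skeletal muscle genes. WT 3, however, had the highest hepatocyte mean of the WT embryos and the second highest mean of the 37 members. H275R heterozygote 2 was the highest of its group in 19 members and also in all 6 hepatocyte genes. Among H275R homozygotes the hepatocyte mean was 10.04, 9.67 and 9.70. It was lowest in H275R homozygote 2 but not highest in H275R homozygote 3, which was the lowest in 26 members. The mean of 6 cartilage genes, among them Col2a1 and Acan, was 7.62, 9.07, 7.65 and 8.87 in CH homozygotes, 7.53 and 8.62 in CH heterozygotes, and 8.04, 8.01, 7.92 and 7.48 in WT embryos. All 6 cartilage genes and all 6 genes of skeletal muscle followed the hepatocyte order in CH homozygotes, while of the 6 erythroid genes 3 were lower and 3 higher in CH homozygotes 1 and 3. The mean of 8 neural progenitor genes ran in the order of the replication and mitosis genes in the CH line, at 10.67, 10.09, 10.37 and 9.94 in CH homozygotes and 10.56 and 9.91 in CH heterozygotes, and was 10.36 to 10.48 in WT embryos. The part of these cell types in the levels of the replication and mitosis genes was not tested.

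**Figure D4:**
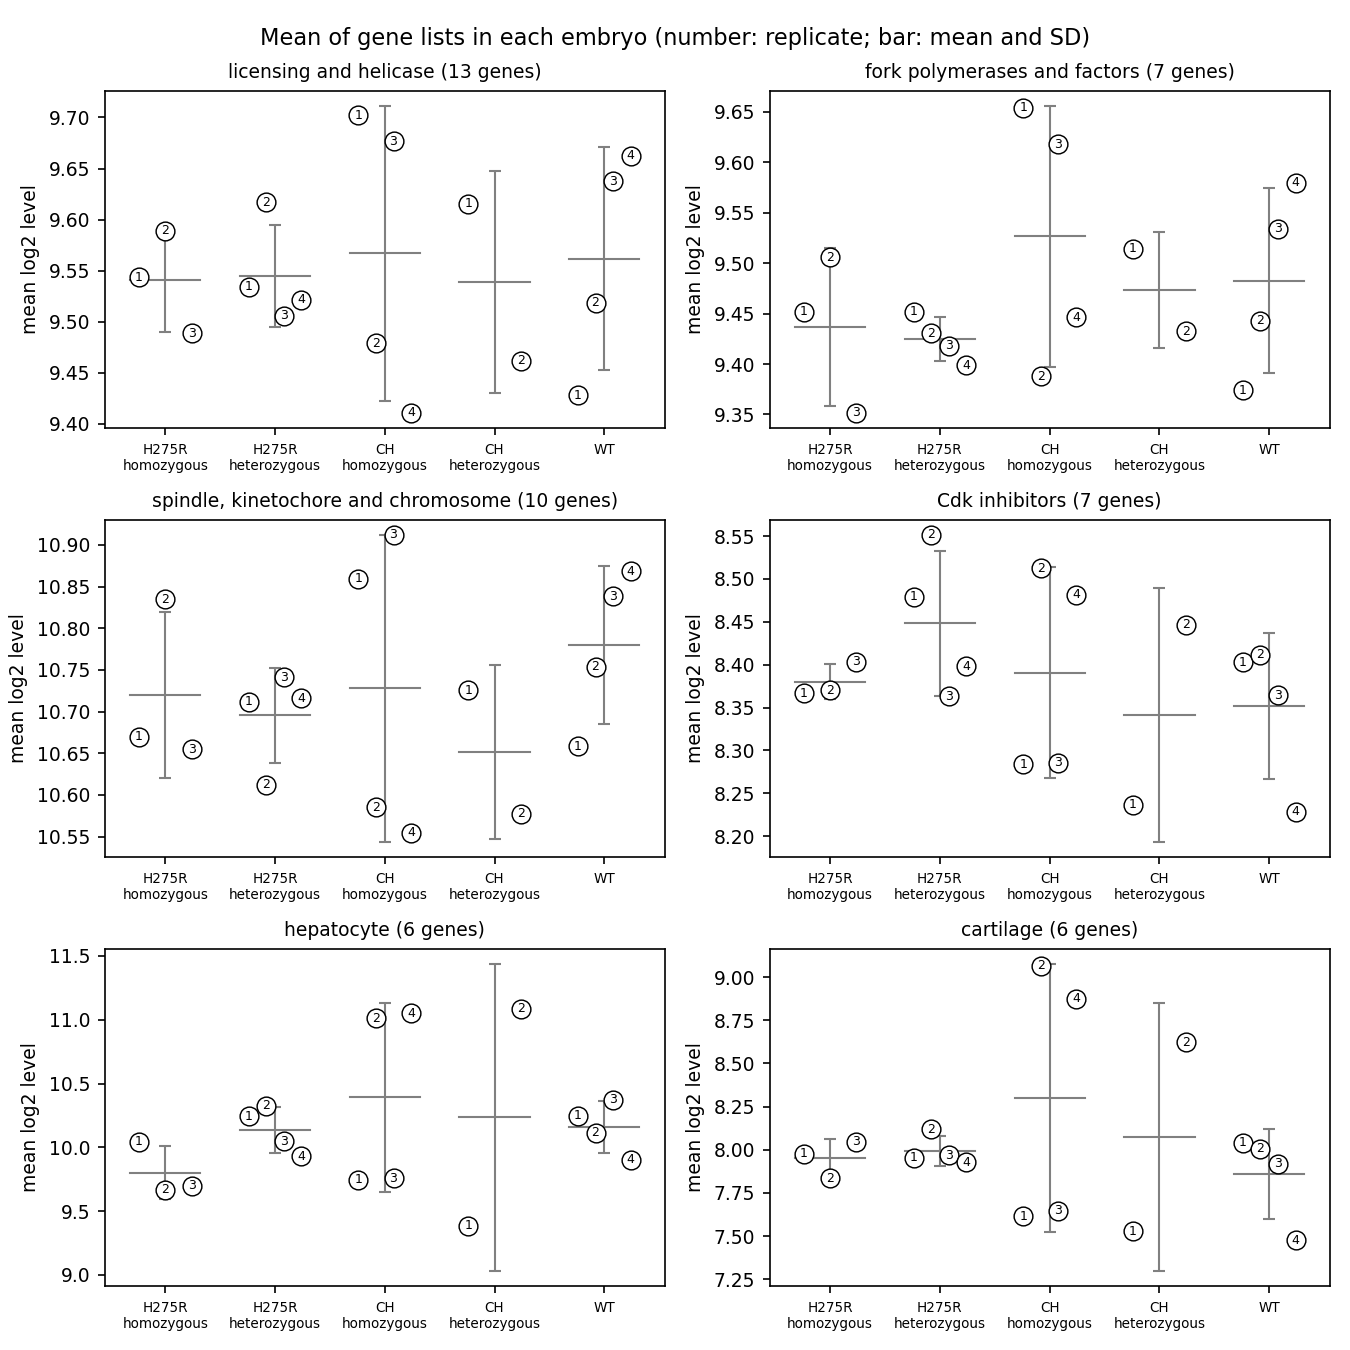
Mean log2 level (y axis) of 3 groups of replication and mitosis genes, of Cdk inhibitor genes and of hepatocyte and cartilage genes in each embryo, by genotype (x axis); circles carry the replicate number, and bars show the mean and SD of each group. CH homozygotes 1 and 3 lie above 2 and 4 for the replication and mitosis genes and below them for the other lists.

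Other genes of the same pathways gave 0 calls in the 7 comparisons as well. Of 34 further replication genes, 19 were below 0 in H275R homozygotes minus WT (47.2% of all genes), with a median of -0.01. In CH homozygotes minus WT 12 were (49.2% of all genes), with a median of 0.05. The ends in CH homozygotes minus WT were Timeless at -0.15 (95% interval -0.40 to 0.09) and Orc5 at 0.14 (95% interval 0.01 to 0.27). Of 34 further mitosis genes, 28 were below 0 in H275R homozygotes minus WT (47.2% of all genes) and 17 in CH homozygotes minus WT (49.2%). Median centring of the arrays, which moved the count of members below 0, was not run for these lists. Pttg1, which encodes securin, the inhibitor of separase, had the largest difference of both lists in CH homozygotes minus WT, at 0.58 (95% interval 0.34 to 0.81, adjusted p = 0.137), and was 0.33 (95% interval 0.07 to 0.58, adjusted p = 0.933) in H275R homozygotes minus WT. In CH homozygotes it was 8.26, 8.03, 8.42 and 8.50, in H275R homozygotes 8.23, 8.16 and 7.77, and in WT embryos 7.60, 7.74, 7.83 and 7.73.

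Regulators of the cycle also gave 0 calls. Of 17 genes of E2F, Rb and DREAM factors 16 were below 0 in H275R homozygotes minus WT (47.2% of all genes), with a median of -0.08. E2f1, an activator of S phase genes, was at -0.18 there (95% interval -0.39 to 0.03, adjusted p = 0.999). In CH homozygotes minus WT 11 were below 0 (49.2% of all genes), with a median of -0.02. Median centring of the arrays was not run for this list either. Ccnd3, a D-type cyclin, was 10.17, 10.40, 10.10 and 10.05 in CH homozygotes and 10.47, 10.42, 10.38 and 10.35 in WT embryos, a difference of -0.22 (95% interval -0.39 to -0.06, adjusted p = 0.424). Among 7 genes of Cdk inhibitors, which stop the cycle as cells differentiate, Cdkn1a (p21) was 0.32 (95% interval 0.01 to 0.63, adjusted p = 0.9996) in H275R heterozygotes minus WT. Cdkn2c (p18) was 7.49, 7.99, 7.30 and 8.05 in CH homozygotes, 7.04 and 7.87 in CH heterozygotes and 7.66, 7.69, 7.56 and 7.43 in WT embryos, with CH homozygotes 2 and 4 above 1 and 3. Cdkn1a, Cdkn1c, Cdkn2c and Cdkn2d, 4 of the 7, had this order in CH homozygotes, opposite to that of most replication and mitosis genes. Cdkn1b and Cdkn2b ran the other way, with CH homozygotes 1 and 3 above 2 and 4, and Cdkn2a had neither order.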

How the data were processed

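The authors deposited log2 values of 17 arrays after RMA normalisation, which their methods carry out with Partek Genomic Suite; the annotation they used is not given in the sources used here. Array columns were matched to samples by name, and 0 were unmatched. Genes were named from the platform annotation of the probe sets: 23521 of 39137 had 1 symbol, 1820 several (used for no gene) and 13796 were not listed. The gene table of GRCm38.p6 held 23477 of the single symbols. Values were used as deposited. Limma 3.58.1 in R 4.3.3 fitted 1 mean per genotype over 15 arrays, or over all 17 where CH heterozygotes were compared, and the Benjamini-Hochberg adjustment ran over all probe sets with a threshold of 0.1. The number of arrays limits the precision. The fit was also run on simulated data with independent noise for each probe set. Such data do not copy the shared movement of members within a genotype, so the run does not bear on it. Members, roles and gene lists were chosen with earlier results of these data known. Values are given in full for the 3 members of each role with the largest F over 5 genotypes; others were chosen as ends of a range or after their values were seen. Alternatives were the replicate number as a block, other sets of arrays in the fit, array weights, robust or trended variance, renormalisation, a filter on dim probe sets, the mean of probe sets, a threshold of 0.05, the methods' t-test, and each array left out.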

Additional observations from a re-analysis of the deposited data

Results flagged for a closer look

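Each of 111 groups of 4 arrays, 1 for each member and genotype of that size, was searched for an embryo far from the others, by the gap to its nearest neighbour as a share of the range of the group. Chance flags about 1 in 20 groups, and 6 were found. H275R heterozygote 2 gave 3 of them: Cenpe was 9.22 there and 10.02 to 10.11 in the other H275R heterozygotes, Pola1 was 9.31 there and 9.58 to 9.63 in the others, and Mcm2 was 11.01 there and 10.87 to 10.88 in the others. Orc1 was 7.49 in H275R heterozygote 1 and 7.74 to 7.79 in the others. Pola1 was 9.64 in CH homozygote 2 and 9.77 to 9.79 in the other CH homozygotes. Rrm1 was 11.22 in WT 4 and 11.06 to 11.08 in the other WT embryos.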

How the results depend on the processing

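The count of members called was 0 in each of the 131 combinations of a comparison and an alternative. Of 1965 differences of the 15 named members under an alternative, none passed the threshold and the smallest adjusted p was 0.115. In 90 of them the sign turned, 66 with 1 array left out and 24 under other alternatives, and 11 of these, all with 1 array left out, also moved by 1 SE or more. The differences that turned were at most 0.175 in size before, and none was past the threshold before or after. In H275R homozygotes minus WT the ranges over the arrays left out were -0.12 to 0.088 for Rrm2, -0.11 to 0.052 for Gins1, -0.12 to 0.011 for Rrm1 and -0.050 to 0.022 for Aurkb. In H275R heterozygotes minus WT the ranges over the arrays left out were -0.0074 to 0.11 for Cdc6, -0.027 to 0.037 for Aurkb, -0.050 to 0.013 for Rrm1 and -0.054 to 0.0054 for Ccnb2. In H275R homozygotes minus H275R heterozygotes the ranges over the arrays left out were -0.073 to 0.043 for Pola1, -0.10 to 0.034 for Rrm1, -0.047 to 0.0057 for Ccna2, -0.058 to 0.015 for Aurkb and -0.068 to 0.23 for Cenpe. In CH homozygotes minus WT the ranges over the arrays left out were -0.049 to 0.022 for Mki67, -0.077 to 0.11 for Tyms, -0.039 to 0.029 for Cdk1, -0.16 to 0.018 for Cenpe and -0.022 to 0.090 for Ccna2. In CH homozygotes minus H275R homozygotes the ranges over the arrays left out were -0.087 to 0.11 for Prim1 and -0.038 to 0.14 for Cenpe. In CH heterozygotes minus WT the ranges over the arrays left out were -0.12 to 0.11 for Pola1, -0.052 to 0.033 for Cdk1, -0.28 to 0.094 for Mki67, -0.060 to 0.11 for Cdc6, -0.54 to 0.36 for Cdt1, -0.15 to 0.079 for Tyms, -0.43 to 0.081 for Aurkb and -0.0010 to 0.11 for Ccna2. In CH homozygotes minus CH heterozygotes the ranges over the arrays left out were -0.041 to 0.045 for Cdk1, -0.083 to 0.14 for Tyms, -0.59 to 0.30 for Cdt1, -0.30 to 0.21 for Aurkb, -0.016 to 0.16 for Cdc6, -0.039 to 0.19 for Pola1, -0.064 to 0.023 for Ccna2, -0.12 to 0.26 for Mki67 and -0.026 to 0.10 for Ccnb2. Median centring of the arrays gave 0.015 for Gins1, 0.024 for Rrm2 and 0.029 for Aurkb in H275R homozygotes minus WT, 0.0047 for Rrm1 and 0.00062 for Ccnb2 in H275R heterozygotes minus WT and 0.0030 for Tyms in CH homozygotes minus WT. Array weights gave -0.011 for Aurkb in H275R heterozygotes minus WT, -0.053 for Pola1 in H275R homozygotes minus H275R heterozygotes, 0.055 for Tyms and 0.0097 for Cdk1 in CH homozygotes minus WT, 0.036 for Prim1 in CH homozygotes minus H275R homozygotes, 0.010 for Pola1 in CH heterozygotes minus WT and 0.0026 for Aurkb in CH homozygotes minus CH heterozygotes. The replicate number as a block gave 0.0032 for Ccna2 in H275R homozygotes minus H275R heterozygotes, 0.0049 for Prim1 in CH homozygotes minus H275R homozygotes, 0.025 for Tyms, 0.030 for Pola1 and 0.015 for Cdk1 in CH heterozygotes minus WT and -0.028 for Tyms and -0.023 for Cdk1 in CH homozygotes minus CH heterozygotes. Quantile normalisation again gave -0.017 for Pola1 in H275R homozygotes minus H275R heterozygotes, 0.0037 for Cdk1 in CH homozygotes minus WT and 0.0084 for Pola1 and 0.0032 for Cdk1 in CH heterozygotes minus WT. The median over members, with 1 array left out in turn, ranged from -0.10 to -0.02 for H275R homozygotes minus WT, -0.08 to -0.01 for H275R heterozygotes minus WT, -0.04 to 0.03 for H275R homozygotes minus heterozygotes, -0.06 to 0.03 for CH homozygotes minus WT, -0.01 to 0.12 for CH homozygotes minus H275R homozygotes, -0.11 to 0.04 for CH heterozygotes minus WT and -0.03 to 0.10 for CH homozygotes minus CH heterozygotes. Median centring of the arrays gave -0.01 for both H275R groups minus WT, and array weights gave 0.03 for CH homozygotes minus WT. With the replicate number as a block the same medians were -0.06, -0.04, -0.01, -0.02, 0.05, -0.03 and 0.03, and 0 members were called. The numbers were not taken to pair the samples, since the labels give them no shared source and, of 29 pairs of arrays with the same number, 8 had deviations that correlated above 0.1. The 2 pairs of CH homozygotes with CH heterozygotes were among these, at 0.429 and 0.273.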
